A study of Homo sapiens with 2 samples.

Results

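Described here are 10 genes of chromosome arm 8q in hNCI-H716 cells: COL14A1, TATDN1, NDUFB9, MTSS1, WASHC5, NSMCE2, TRIB1, FAM84B, MYC and the long noncoding RNA gene PVT1. They were chosen by their levels in these libraries, in CPM (counts per 1000000 counts), and taken by name from a table of 19989 genes, and all 10 have a value in both libraries. Most were noticed because that level was high, so the levels are given as a description and no test was run on them. No threshold was set. In GENCODE v29 on GRCh38 the genes lie in the order listed, from the start of COL14A1 to the end of PVT1, over 8.04 Mb of chromosome 8. SQLE, which lies between MTSS1 and WASHC5, is left out of the 10 and given only by its place, its rank and its point in the plot along the chromosome arm.

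Band 8q24 is best known as the home of MYC, a transcription factor that binds DNA with its partner MAX and drives genes for ribosome synthesis, metabolism and cell division. PVT1 lies next to MYC in the same direction and is spliced into many transcripts, and the segment that holds both is often gained in human tumors. The other 8 genes encode proteins of varied function: a fibril-associated collagen, a nuclease-like protein, a subunit of the mitochondrial respiratory chain, an actin and membrane binding protein, a subunit of an endosomal actin regulator, a SUMO ligase, a pseudokinase and a protein with an LRAT-like domain. Copy number was not measured.

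The hNCI-H716 line comes from a colorectal adenocarcinoma of the cecum and serves as a human model of the L-cell, the enteroendocrine cell that makes glucagon-like peptide-1. Cells were attached to Matrigel for a day and then held for 48 h in DMEM with 10% FBS and antibiotics, at 5.5 mM glucose (low) or 25 mM glucose (high). The study made 1 library of polyadenylated RNA from each concentration, so the spread between cultures is unknown, no p-value is given, and every interval below covers counting error only. The libraries held about 21757800 estimated counts (low glucose) and 19456815 (high glucose), and a count of 0 allows up to 0.138 and 0.154 CPM. The line comes from a single tumor, and each value is that of a whole culture, in which fewer expressing cells and less RNA per cell cannot be told apart.

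The markers of the labelled cell type were present in part. GCG, the proglucagon gene, was at 1954 CPM in low and 1808 CPM in high glucose, and 9 of 12 enteroendocrine and epithelial markers averaged at least 1 CPM. CHGA was at 704 and 653 CPM, CHGB at 836 and 800 CPM and PCSK1 at 555 and 600 CPM. KRT8 was at 270 and 291 CPM, KRT18 at 182 and 212 CPM and EPCAM at 3.37 and 3.50 CPM. The counting interval of the log2 ratio, high over low, lay below 0 in GCG, CHGA and CHGB and above 0 in 5 of the 9. Of all expressed genes 15.9% lay below and 15.8% above, most with fewer counts. PYY and NEUROD1 had no value here, and CDH1, which encodes E-cadherin, was at 0.0582 and 0.166 CPM. None of the 7 endothelial and blood markers averaged at least 1 CPM, and their summed level was 1.90 CPM in low and 2.22 CPM in high glucose. Of 10 fibroblast markers 5 averaged at least 1 CPM, led by COL3A1 at 815 and 742 CPM. LUM was at 177 and 181 CPM, FAP at 97.1 and 102 CPM, PDGFRA at 11.2 and 13.3 CPM and COL1A2 at 3.74 and 4.94 CPM. The summed fibroblast level was 1105 CPM in low and 1043 CPM in high glucose, while COL1A1 was at 0.0582 and 0.115 CPM and COL6A3, DCN, PDGFRB and THY1 had no value. Among the 8q24 genes these markers bear most on COL14A1, a collagen gene, and their part in its level was not tested. At least 25% higher in high glucose, as were 4.41% of all expressed genes, were VIL1, CDX2 (just past that mark, at a log2 ratio of 0.33) and COL1A2, whose counting interval spanned 0 (-0.04 to 0.85).

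The 10 genes together summed to 31472 CPM in low and 30291 CPM in high glucose, which is 3.14% and 3.03% of all CPM. Of the CPM of genes placed on chromosome 8 they held 53.9% and 51.8%. A group of 7 (COL14A1, NDUFB9, MTSS1, WASHC5, NSMCE2, TRIB1 and FAM84B) each averaged at least 1000 CPM, a level reached by 88 genes in all. These 7 were in the highest 1% of the table by CPM, and the same number were in the highest 1% by CPM per kb of the longest transcript, which takes gene length into account. TATDN1, MYC and PVT1 were lower, and none of the 10 was below 138 CPM in either library. The smallest count behind any value was 2911, for TATDN1 in high glucose, so counting error is small throughout.

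**Figure D1:**
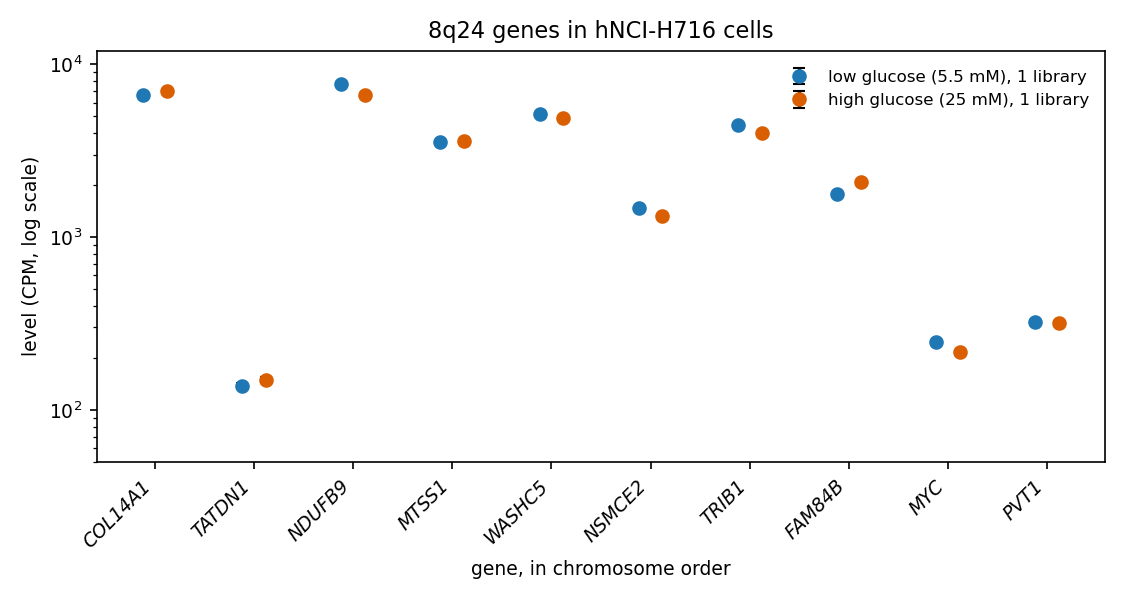
Level of each 8q24 gene in CPM (log axis), in chromosome order from left to right, with 1 point for the low glucose library and 1 for the high glucose library. Bars are 95% Wilson intervals for counting error and are smaller than the points. COL14A1 and NDUFB9 stand between 6659 and 7703 CPM, TATDN1 beside NDUFB9 stands at 138 and 149 CPM, and the points of the 2 libraries lie close together for every gene.

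COL14A1 (ENSG00000187955.11, chromosome 8, 120059780 to 120372036, plus strand) encodes collagen XIV, a fibril-associated collagen of the extracellular matrix. It was at 6659 CPM (95% Wilson interval 6625 to 6693) in low glucose and 6991 CPM (6954 to 7028) in high glucose. By mean CPM it was the 3rd highest of all genes, and per kb it was at 1030 and 1081 CPM and ranked 27 of those with a length. It stood alone among its relatives, the collagens with interrupted triple helices (the FACIT group). Of 10 genes on that list, COL9A1, COL19A1, COL20A1 and COL22A1 had no value here, and COL9A2 and COL12A1 had a mean under 1 CPM. The next highest was COL9A3 at 4.43 and 4.22 CPM per kb, 244-fold lower than COL14A1 in the mean, and COL16A1 and COL21A1 were lower again.

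TATDN1 (ENSG00000147687.18, 124488485 to 124539458, minus strand) encodes a protein related to the TatD nucleases. It was at 138 CPM (133 to 143) in low glucose and 149 CPM (144 to 155) in high glucose, and ranked 1469 by mean CPM. NDUFB9 (ENSG00000147684.8, 124539101 to 124580648, plus strand) starts 358 bases inside TATDN1 on the other strand, so these genes face away from each other. It encodes an accessory subunit of complex I, the NADH dehydrogenase of the mitochondrial respiratory chain. NDUFB9 was at 7703 CPM (7666 to 7740) in low glucose and 6665 CPM (6629 to 6702) in high glucose. It had the highest CPM of all genes in low glucose and the 4th highest in high glucose. These head-to-head neighbors thus had very unequal levels as counted. Per kb of longest transcript NDUFB9 was 36.0-fold higher than TATDN1 in the mean, and 58.1-fold higher per kb of merged exons. They share 187 exonic bases, 3.91% of the merged exons of TATDN1 and 4.55% of those of NDUFB9. As the library kit does not mark the strand, the TATDN1 level and its interval depend on how reads there were divided.

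NDUFB9 also stood far above the other listed genes of the complex it belongs to. All 37 listed complex I subunits averaged at least 1 CPM. The list holds nuclear genes only, so subunits encoded in mitochondrial DNA are not covered. The other 36 had a median of 50.3 CPM per kb in low glucose and 47.5 CPM per kb in high glucose, while NDUFB9 was at 2757 and 2386 CPM per kb. NDUFS5, the next highest subunit, was at 423 and 414 CPM per kb, 6.15-fold lower in the mean. The level of NDUFB9 per kb was 0.972 times the sum of the other 36 subunits in low glucose and 0.920 times that sum in high glucose. Its processed pseudogenes NDUFB9P1, NDUFB9P2 and NDUFB9P3 had no value here, and how reads are divided between NDUFB9 and such copies depends on the authors' counting.

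MTSS1 (ENSG00000170873.18, 124550790 to 124728429, minus strand) encodes a protein that binds actin and bends membranes through its I-BAR domain. It was at 3577 CPM (3552 to 3602) in low glucose and 3614 CPM (3588 to 3641) in high glucose, rank 13 by mean CPM. Its gene body overlaps NDUFB9 on the other strand, and 677 exonic bases are shared, which is 8.76% of the merged exons of MTSS1 and 16.5% of those of NDUFB9. The library kit does not mark the strand, so reads of either gene in that stretch cannot be told apart. The I-BAR relatives were low: MTSS1L, BAIAP2 and BAIAP2L2 had a median of 14.4 CPM per kb, 50.6-fold lower than MTSS1, and BAIAP2L1 had a mean under 1 CPM.

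WASHC5 (ENSG00000164961.15, 125024260 to 125091840, minus strand) encodes strumpellin, a core subunit of the WASH complex, which builds branched actin on endosomes. It was at 5136 CPM (5106 to 5166) in low glucose and 4912 CPM (4881 to 4943) in high glucose, rank 8 by mean CPM. The WASH complex has 6 genes on its list, and all averaged at least 1 CPM. WASHC5 was at 1227 and 1173 CPM per kb, against 28.8 and 25.4 for WASHC3, the next highest, and medians of 16.6 and 13.3 CPM per kb for the other 5 subunits. WASHC1, WASHC2A and WASHC2C belong to families of near-identical copies, so their own levels are uncertain.

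NSMCE2 (ENSG00000156831.7, 125091679 to 125367120, plus strand) encodes the SUMO ligase of the SMC5/6 complex, which acts in DNA repair. It starts 162 bases inside WASHC5, again on the other strand, and those bases are exonic in both genes. NSMCE2 was at 1466 CPM (1450 to 1482) in low glucose and 1326 CPM (1310 to 1343) in high glucose, rank 49 by mean CPM. The ATPases SMC5 and SMC6, and NSMCE1, NSMCE3 and NSMCE4A, had medians of 12.4 and 12.1 CPM per kb, against 1227 and 1110 CPM per kb for NSMCE2. NSMCE1 was the highest of those 5 at 43.6 and 37.3 CPM per kb, and EID3 had a mean under 1 CPM.

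WASHC5 and NSMCE2 lie head to head, as do TATDN1 and NDUFB9. Per kb of longest transcript, the low glucose values of NSMCE2, WASHC5 and TRIB1 were 1227, 1227 and 1226 CPM, and their counting intervals overlapped. Per kb of merged exons NSMCE2 was lower, at 490 CPM in low glucose against 1074 CPM for WASHC5. Its place in the order therefore depends on which transcripts the cells use, which gene totals do not show.

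TRIB1 (ENSG00000173334.3, 125430321 to 125438405, plus strand) encodes a pseudokinase that brings substrates such as C/EBPα to the ubiquitin ligase COP1. It was at 4456 CPM (4428 to 4484) in low glucose and 4016 CPM (3988 to 4045) in high glucose, rank 9 in both libraries. Its relative TRIB3 was at 33.8 and 20.1 CPM per kb against 1226 and 1105 for TRIB1, and TRIB2 had a mean under 1 CPM. Of its partners, COP1 (named RFWD2 in the table) was at 52.6 and 55.6 CPM, and MAP2K1, which encodes the kinase MEK1, at 75.8 and 80.1 CPM. CEBPA, the transcription factor gene best known as a TRIB1 substrate, was at or below the floor of 3 counts in both libraries.

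FAM84B (ENSG00000168672.3, 126552442 to 126558393, minus strand), also called LRATD2, encodes a protein with an LRAT-like domain and stands 1.11 Mb beyond TRIB1. It was at 1766 CPM (1749 to 1784) in low glucose and 2082 CPM (2061 to 2102) in high glucose, rank 31 by mean CPM. Its relative FAM84A was at 6.72 and 7.45 CPM per kb, against 327 and 385 for FAM84B. The noncoding gene PCAT1 overlaps 1163 exonic bases of FAM84B on the other strand, 21.5% of its exons, and was itself at 54.2 and 47.6 CPM. As the strand is not marked, the level of PCAT1 depends on how reads in those bases were divided.

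MYC (ENSG00000136997.17, 127735434 to 127741434, plus strand) was at 246 CPM (239 to 252) in low glucose and 216 CPM (209 to 222) in high glucose, rank 802 by mean CPM. PVT1 (ENSG00000249859.9, 127794533 to 128101253, plus strand) begins 53.1 kb beyond MYC. It was at 324 CPM (317 to 332) in low glucose and 319 CPM (312 to 327) in high glucose, rank 497. Which of these neighbors was higher depends on the length used: PVT1 was 1.94-fold higher than MYC per kb of longest transcript, but at 0.763 times MYC per kb of merged exons. PVT1 has 25 annotated transcripts, whose merged exons cover 5493 bases against 1699 in the longest, while those of MYC cover 3001 against 2366. Neither reached the highest 1% of genes, whose lowest members were at 611 CPM and 319 CPM per kb.

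Ordered by CPM per kb of longest transcript in low glucose, the genes ran NDUFB9, NSMCE2, WASHC5, TRIB1, COL14A1, MTSS1, FAM84B, PVT1, MYC and TATDN1. In high glucose the order was the same except that WASHC5 came ahead of NSMCE2. The neighbors in these orders whose counting intervals overlapped were NSMCE2, WASHC5 and TRIB1 in low glucose, and NSMCE2 and TRIB1 in high glucose. With merged exons NDUFB9 stayed first and TATDN1 last in both libraries, and MYC came ahead of PVT1. The range was from 68.6 to 2757 CPM per kb in low glucose and from 74.1 to 2386 CPM per kb in high glucose.

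**Figure D2:**
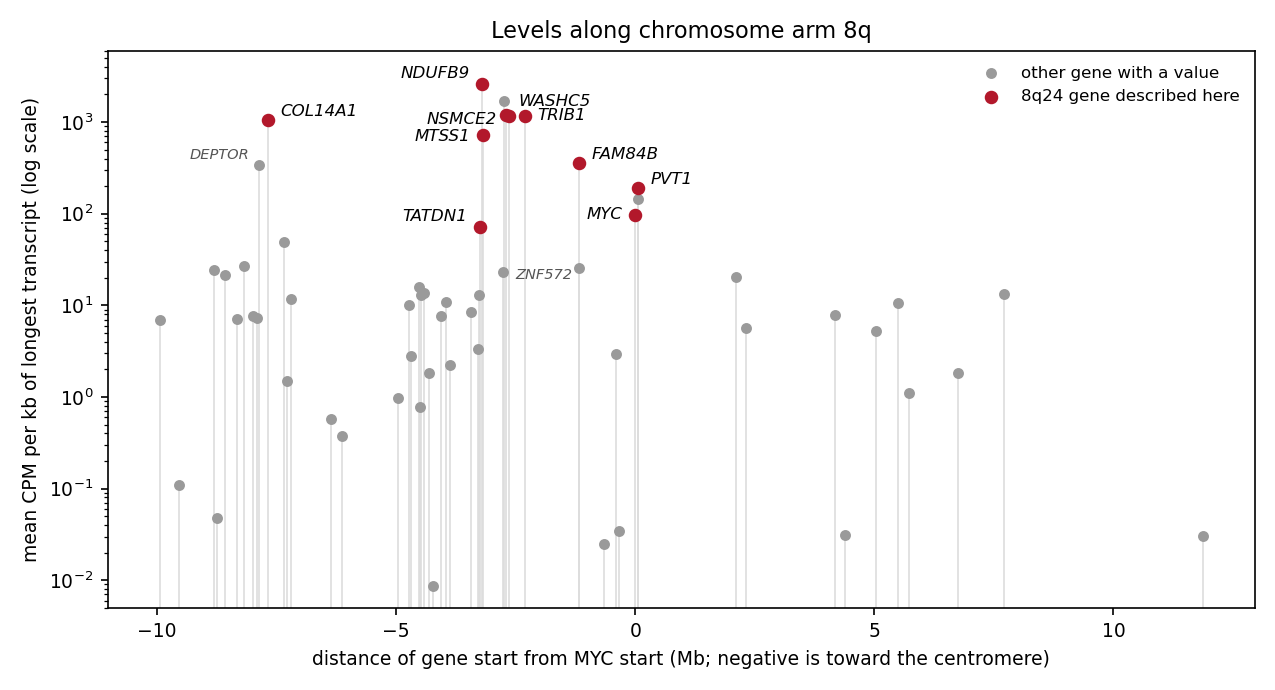
Mean CPM per kb of longest transcript (log axis) of each gene with a value from COL14A1 to PVT1, and of the 10 protein-coding genes on either side, against the distance of the gene's start from the start of MYC in Mb. The red points of the 8q24 genes described here lie from 71.4 to 2571 CPM per kb, and the 17 expressed coding genes between COL14A1 and TATDN1 lie at or below 49.0 CPM per kb. The unlabelled grey point above WASHC5 is SQLE, and the grey point below PVT1 is a small RNA inside it.

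The high levels were not a feature of every gene of the segment. GENCODE v29 holds 131 genes from COL14A1 to PVT1, of which 37 had a value under the same name, and 31 of its 33 protein-coding genes were among them. FAM83A and KLHL38 had none. Of the 98 others 6 had a value, but 73.3% of the table's names occur in this annotation, and noncoding genes listed under clone or older names would be missed. The 27 genes with a value that are not among the 10 had a median of 7.70 CPM per kb, against 891 CPM per kb for the 10, which were picked for being high. SQLE, rank 7 by mean CPM, was the only one of the 27 in the highest 1% by CPM per kb.

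COL14A1 is set apart from the rest by 4.12 Mb. The 17 protein-coding genes that averaged 1 CPM or more in that interval, in order MRPL13, MTBP, SNTB1, HAS2, ZHX2, DERL1, TBC1D31, C8orf76, ZHX1, ATAD2, WDYHV1, ANXA13, FAM91A1, FER1L6, TMEM65, TRMT12 and RNF139, had a median of 8.47 CPM per kb. Their range was 0.378 to 49.0 CPM per kb, and MRPL13, a mitochondrial ribosomal protein gene, was the highest. All expressed protein-coding genes of the table had a median of 8.60 CPM per kb. Immediately before COL14A1, 8.87 kb away, DEPTOR was at 851 CPM in low and 891 CPM in high glucose. DEPTOR encodes an inhibitor of the kinase mTOR, and at 339 CPM per kb it was also in the highest 1% of genes.

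Of the 10 coding genes before COL14A1, 8 averaged at least 1 CPM: EXT1, TNFRSF11B, MAL2, NOV, ENPP2, TAF2, DSCC1 and DEPTOR, with a median of 14.7 CPM per kb. Of the 10 after PVT1, 8 did: FAM49B, ASAP1, EFR3A, PHF20L1, NDRG1, ST3GAL1, ZFAT and KHDRBS3, with a median of 6.69 and a maximum of 20.5 CPM per kb. The cluster of 950 kb from TATDN1 to TRIB1 held 1 further gene with a value besides SQLE. This gene, the zinc finger gene ZNF572, was at 80.2 and 69.4 CPM, or 22.8 CPM per kb in the mean. Nearer to MYC, POU5F1B was at 16.5 and 11.9 CPM, and CCAT2 was below the floor of 3 counts in both libraries.

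Outside the segment the genes of chromosome 8 were not high. These 364 expressed coding genes had a median of 6.39 CPM per kb, against 8.68 CPM per kb for 10906 genes of the other chromosomes. Of the 393 on the whole chromosome, 12 were in the highest 1% by CPM per kb, and 8 of these were the 7 genes above and SQLE. By CPM, 13 of the 192 genes placed in the highest 1% lay on chromosome 8, which is 6.77% of them, while the chromosome held 3.35% of all placed genes and 5.83% and 5.86% of all CPM. Only RPL8, a ribosomal protein gene, reached 1000 CPM on chromosome 8 outside the segment.

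**Figure D3:**
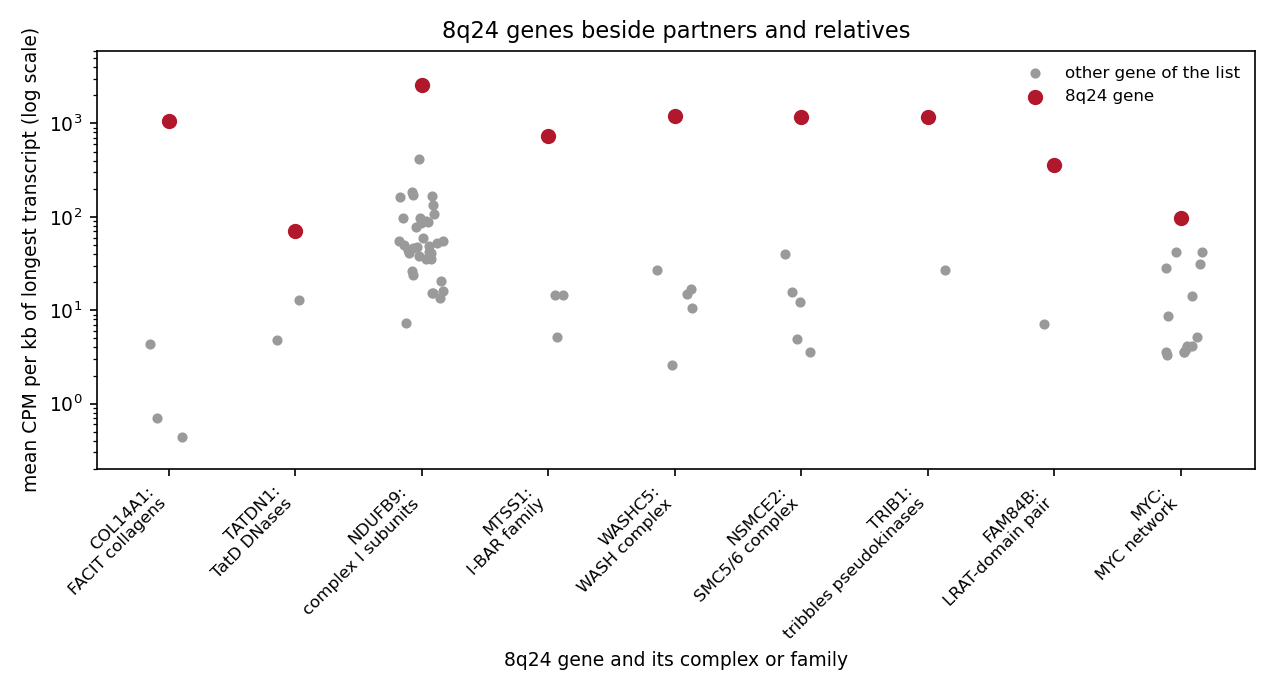
Mean CPM per kb of longest transcript (log axis) of 9 of the 8q24 genes (red) beside the other genes of the complex or family each belongs to (grey), for genes that averaged 1 CPM or more. Horizontal jitter within a column has no meaning. In each column the red point is the highest, from 2.32-fold above HUWE1 for MYC to 244-fold above COL9A3 for COL14A1.

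Set beside its complex or family, each of the 9 protein-coding genes was the highest of its list, with either measure of length. The ratio to the median of the other expressed genes per kb was 1498 for COL14A1, 95.6 for NSMCE2, 80.4 for WASHC5, 52.3 for NDUFB9, 50.6 for MTSS1, 50.3 for FAM84B, 43.3 for TRIB1, 20.8 for MYC and 8.03 for TATDN1. The first 7 of these are the genes that averaged 1000 CPM or more. With merged exons the ratio was 3.89 for TATDN1 and 32.4 for MTSS1, and the order within the 7 changed, with WASHC5 at 106 ahead of NSMCE2 at 71.7 and FAM84B at 66.3 ahead of NDUFB9 at 59.8. As these genes were chosen for high levels the ratios are a description. They rest on 3 relatives for COL14A1 and MTSS1 and on fewer for TATDN1 (TATDN2 and TATDN3), TRIB1 (TRIB3) and FAM84B (FAM84A). The ratio of TATDN1 also depends on how reads in the bases it shares with NDUFB9 were divided. The ratio of COL14A1 was 1208 in low and 1942 in high glucose, as its median relative, COL16A1, was at 4.89 and 3.19 CPM.

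Between the 2 glucose concentrations the log2 ratios of the 10 genes, high over low, ran from -0.21 for NDUFB9 to 0.24 for FAM84B, with a median of -0.04. Over all 13052 genes that averaged 1 CPM or more the median was -0.01 and the SD 0.31. None of the 10 was at least 25% higher in 1 library than in the other. Over those 13052 genes, 4.41% were at least 25% higher in high glucose and 8.18% at least 25% higher in low glucose. Such differences were rarer at higher levels, 1.47% and 2.62% over genes averaging 10 CPM or more, so a count of 0 among 10 genes above 138 CPM is close to the background. At a mark of 10%, FAM84B was past it in high glucose, as were 18.9% of those genes, and NDUFB9, MYC, TRIB1 and NSMCE2 were past it in low glucose, as were 24.6%.

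FAM84B had the widest difference upward, 1.18-fold higher in high glucose (log2 ratio 0.24, 95% counting interval 0.22 to 0.26). NDUFB9 had the widest downward, 1.16-fold lower in high glucose (-0.21, interval -0.22 to -0.20), which is 1038 CPM, since it was at 7703 and 6665 CPM. MYC was 1.14-fold lower (-0.19, interval -0.25 to -0.13). These were small steps that the depth nonetheless resolves as differences between the libraries. TRIB1 was 1.11-fold lower (-0.15, interval -0.16 to -0.14) and NSMCE2 also 1.11-fold lower (-0.14, interval -0.17 to -0.12). WASHC5 differed by -0.06, COL14A1 by 0.07 and TATDN1 by 0.11 on the log2 scale. MTSS1 and PVT1 were nearest to equal, at 0.02 and -0.02.

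In 4 of the 10 genes the counting interval of the log2 ratio lay above 0, in 5 below 0, and in PVT1 it spanned 0 (-0.07 to 0.03). Over all genes that averaged 1 CPM or more, 15.8% had an interval above 0 and 15.9% below, but most of those genes have far fewer counts. Among the 2239 genes that averaged 100 CPM or more the interval left out 0 in 62.3%. An interval that leaves out 0 therefore says that 2 deep libraries differ, not that cultures at 2 concentrations would.

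The difference of each gene was also set beside those of the 500 genes nearest to it in mean CPM, whose log2 ratios had an SD of 0.12 to 0.14. For COL14A1, NDUFB9, MTSS1, WASHC5, TRIB1 and FAM84B these were 1 shared set, which ran from 317 to 7677 CPM and so held many genes of much lower level. FAM84B differed by more than 93.2% of its 500 in size, MYC by more than 91.0% and NDUFB9 by more than 87.8%. TRIB1 and NSMCE2 exceeded 71.2% and 69.8%, and the other 5 lay within 1 SD of 0. PVT1 exceeded 12.4% and MTSS1 5.6% of theirs.

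**Figure D4:**
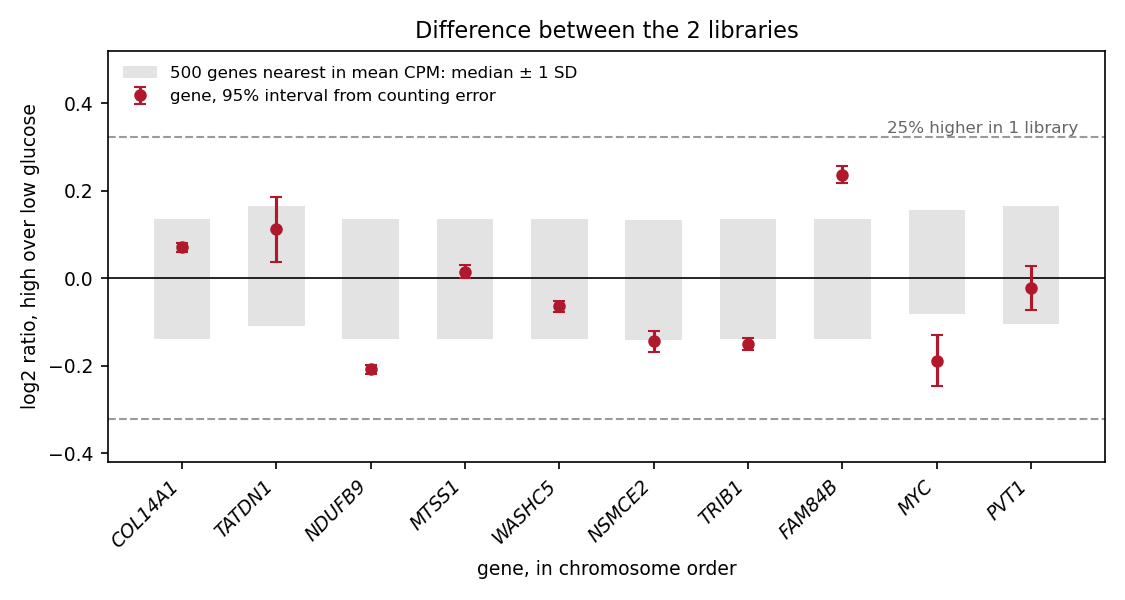
Log2 ratio of high to low glucose for each 8q24 gene, in chromosome order, with 95% exact binomial intervals for counting error. Grey boxes span 1 SD on either side of the median log2 ratio of the 500 genes nearest in mean CPM, and dashed lines mark a level 25% higher in 1 library than in the other. FAM84B at 0.24 and NDUFB9 at -0.21 are the farthest from 0, and no gene reaches a dashed line.

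Neighbors did not all share a direction along the segment. TATDN1 was at 0.11 and NDUFB9, head to head with it, at -0.21, while WASHC5 and NSMCE2, the other such pair, were at -0.06 and -0.14. Both pairs share exonic bases, so these ratios can depend on how reads there were divided. FAM84B at 0.24 stood between TRIB1 at -0.15 and MYC at -0.19. The small RNA RF02164, annotated within an exon of PVT1 on the same strand, was at 39.4 CPM in low and 16.1 CPM in high glucose, a log2 ratio of -1.29 (interval -1.48 to -1.10). It overlaps 194 exonic bases of PVT1, so reads there could be given to either. PVT1 and RF02164 added together were at 364 and 336 CPM, a log2 ratio of -0.12 (interval -0.16 to -0.07) in place of the -0.02 of PVT1 alone.

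Where a gene belongs to a complex, its difference was set beside that of its partners. The background over all expressed genes was 51.4% with a lower value in high glucose, 15.9% with a counting interval below 0, and 4.41% and 8.18% past the 25% mark in high and in low glucose. The median expressed gene was at 27.8 CPM, while every listed complex I subunit averaged at least 33.0 CPM. Over genes averaging 10 CPM or more, 1.47% and 2.62% were past the mark. Over genes averaging 100 CPM or more, the interval left out 0 in 62.3%, in either direction. Among complex I subunits 32 of 37 had a lower value in high glucose, 25 with an interval below 0, and the median log2 ratio was -0.14 (range -0.38 to 0.13). NDUFB9 at -0.21 lay inside that range, with 9 of the other 36 subunits lower still. NDUFA2 (43.9 and 33.9 CPM) and NDUFB7 (53.0 and 40.8 CPM) were past the 25% mark, at -0.37 and -0.38, and no subunit was past it upward. The 3 highest ratios were those of NDUFC2, NDUFA9 and NDUFS1, at 0.13, 0.12 and 0.09.

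In 5 of the 6 WASH complex genes the counting interval of the log2 ratio lay below 0, beside 15.9% of all expressed genes, and the median of the 6 was -0.18. WASHC1, WASHC2A and WASHC2C have near-identical copies, so their intervals leave out the error of dividing reads between copies. WASHC4 (97.4 and 97.3 CPM) was equal within counting error, and WASHC5 at -0.06 was the next nearest to 0. WASHC1, which encodes the subunit that activates the Arp2/3 complex, was past the 25% mark at -0.82, from 5.99 and 3.38 CPM and thus from 130 and 65.7 estimated counts. WASHC2A was at -0.32, just short of the 25% mark, and WASHC2C and WASHC3 were at -0.18 and -0.19. In the SMC5/6 complex the interval lay below 0 in NSMCE1 and NSMCE2 and spanned 0 in the other 4 expressed genes, and none was past the 25% mark. The values were -0.23 for NSMCE1, -0.14 for NSMCE2, -0.13 for NSMCE3, -0.05 for NSMCE4A, -0.04 for SMC6 and 0.02 for SMC5.

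Around TRIB1 the wider differences were in genes of lower level. TRIB3, a stress-induced pseudokinase gene, was at 84.4 CPM in low and 50.2 CPM in high glucose, a log2 ratio of -0.75 (interval -0.86 to -0.64). CEBPB, which encodes C/EBPβ, had 608 and 279 estimated counts (-0.97, interval -1.18 to -0.76). DET1, which encodes a partner of COP1, was at 8.48 and 6.27 CPM (-0.44, interval -0.78 to -0.10). These 3 were past the 25% mark in low glucose, as were 8.18% of all expressed genes, and TRIB1 at -0.15 was not. RFWD2 and MAP2K1 were each at 0.08.

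The relatives of the remaining genes held small counts or small differences. COL16A1 was at 4.89 and 3.19 CPM (log2 ratio -0.61, past the 25% mark), COL9A3 at -0.07 and COL21A1 at 0.19. MTSS1L, BAIAP2 and BAIAP2L2 were at -0.18, -0.07 and -0.02, and TATDN2 and TATDN3 at 0.13 and -0.04. FAM84A was at 42.7 and 47.3 CPM, a log2 ratio of 0.15 beside the 0.24 of FAM84B. PCAT1, which overlaps FAM84B on the other strand, was at -0.19, a ratio that depends on how the reads of shared bases were divided. Of the 16 noncoding genes listed around MYC and PVT1, 4 had a value under the name used here (older and clone names were not matched), and PVT1 and PCAT1 were the 2 that averaged 1 CPM or more.

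Of 16 listed genes of the network around MYC, 15 averaged at least 1 CPM, and MYCL had no value here. Of 13788 placed protein-coding genes with a value, 11299 averaged at least 1 CPM. MYC had the highest CPM per kb of the 15, at 104 in low and 91.1 in high glucose. HUWE1, a ubiquitin ligase gene, was at 41.8 and 42.4. MAX, the obligate partner of MYC, was close to HUWE1 at 40.5 and 43.1 CPM per kb. Per kb of merged exons MAX was lower, at 29.8 CPM against 35.8 CPM for HUWE1 in the mean. The antagonists that compete for MAX were lower: MXD1, MXI1, MXD3, MXD4, MNT and MGA ranged from 3.24 to 14.3 CPM per kb over both libraries. The counting interval of the log2 ratio lay above 0 in 3 of the 15, below 0 in 4 and spanned 0 in 8, beside 15.8% of all expressed genes above 0 and 15.9% below, and the median was -0.06.

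MYCN, a paralog of MYC, was the 1 gene of the 15 past the 25% mark (4.41% of all expressed genes were, in that direction), at 7.79 CPM in low and 10.6 CPM in high glucose (log2 ratio 0.44, interval 0.14 to 0.74). MYC itself was at -0.19 and MAX at 0.09. FBXW7, which encodes the ubiquitin ligase subunit that marks MYC for degradation, was at 32.0 and 27.0 CPM (-0.24, interval -0.41 to -0.08), the lowest ratio of the list. SKP2, another ubiquitin ligase gene that acts on MYC, was at 99.3 and 113 CPM (0.18, interval 0.10 to 0.27).

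Of 33 listed genes that MYC is known to activate, 31 averaged at least 1 CPM. None was past the 25% mark, beside 1.47% and 2.62% of all genes averaging 10 CPM or more in high and in low glucose. The interval lay above 0 in 15 and below 0 in 2, against 15.8% and 15.9% of all expressed genes, most of which have fewer counts. The list had a median log2 ratio of 0.06 against the -0.01 of all expressed genes, and a range of -0.23 to 0.26. LDHA, the lactate dehydrogenase gene, had the highest ratio, from 1115 to 1335 CPM, and TFRC, the transferrin receptor gene, the next at 0.18. The lowest were HK2, a hexokinase gene, at 159 and 135 CPM, and CDK4, a cell-cycle kinase gene, at 455 and 391 CPM.

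Among 5 genes that MYC is known to repress, the interval lay below 0 in 3, beside 15.9% of all expressed genes, and spanned 0 in CDKN1A and CDKN2B, and the median was -0.23. GADD45A, a stress and growth arrest gene, was the 1 of the 5 past the 25% mark (8.18% of all expressed genes were, in that direction), at 35.0 and 26.5 CPM (-0.40, interval -0.57 to -0.24). The cyclin-dependent kinase inhibitor genes CDKN1A, CDKN1B and CDKN2B were at -0.18, -0.23 and 0.22. NDRG1, which lies on chromosome 8 beyond PVT1, was at -0.26.

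**Figure D5:**
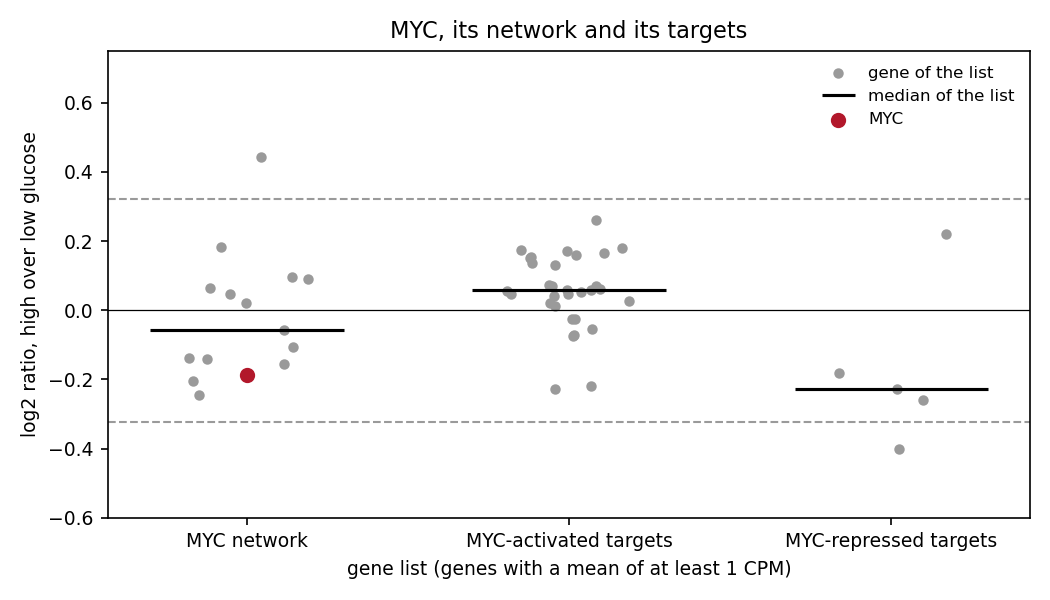
Log2 ratio of high to low glucose of the genes that averaged 1 CPM or more in the MYC network, the MYC-activated targets and the MYC-repressed targets, 1 point per gene, with the median of each list as a black line (-0.06, 0.06 and -0.23). MYC is the red point at -0.19, dashed lines mark a level 25% higher in 1 library than in the other, and MYCN and GADD45A are the points beyond them. Horizontal jitter has no meaning.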

How the data were processed

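Polyadenylated RNA of 2 hNCI-H716 cultures, 1 per glucose concentration, was sequenced in paired ends with a kit that does not mark the strand. Per the labels and the study's methods, the authors trimmed reads with Trim Galore 0.5.0, aligned them to GRCh38 with STAR 2.6.0, estimated counts per gene with RSEM 1.3.1 against GENCODE v28, removed genes with almost no counts and normalized by TMM in edgeR. The deposited table gives each library's CPM, and its log2 CPM, which equal the log2 of the deposited CPM to within 0.00051 and were not used further. The authors' mean, fold and log2 difference columns were not used, and 0 sample columns were left unmapped.

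The deposited CPM carry a prior of 0.0121 CPM and no visible TMM factor. The worth of 1 count (0.0460 CPM in low, 0.0514 CPM in high glucose) came from the spacing of the low values. With it, 70.9% and 71.4% of values under 10 CPM came within 0.02 of a whole count. RSEM estimates need not be whole, so no count model was run. TMM factors (trims of 30% of ratios and 5% of levels) were 0.998 and 1.002, and levels are CPM after these factors with the prior kept. Intervals are at 95%, Wilson for a level and exact binomial for a log2 ratio, and cover counting error only. Expressed means a mean of 1 CPM or more, and the 25% mark means at least 25% higher in 1 library than in the other.

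Coordinates and transcript lengths came from GENCODE v29 on GRCh38. Its symbols matched 73.3% of the genes, which carry 96.7% of the CPM. Levels between genes were compared per kb of the longest transcript, or of merged exons as an alternative. Python 3.11.15, numpy 2.4.6, pandas 2.3.3, scipy 1.17.1 and matplotlib 3.10.9 were used, and the calculations were tested on simulated data. The genes and lists were chosen with earlier results of these data known. Named are the 10 genes, the expressed genes of the segment and its flanks, every gene of complexes and families of up to 10 genes, the 2 highest and 2 lowest of longer lists, and any listed gene past the 25% mark. A few further genes (NDUFS5, NDUFS1, HUWE1, MAX and its antagonists, CCAT2, FAM83A and KLHL38) were named after their values were seen. So were the enteroendocrine and epithelial markers that this rule does not cover. Alternatives were library totals, median-of-ratios size factors, the prior taken off, another pseudocount, protein-coding genes only, other filters and folds, and merged exon length.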

Additional observations from a re-analysis of the deposited data

How the results depend on the processing

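Across 67 results and 180 recomputed values, 161 kept their direction and size, 18 moved and 1 reversed. The CPM and log2 ratios of the 10 genes did not move under other scalings, with the prior taken off or, for the ratios, with another pseudocount, and the largest change in a log2 ratio was 0.0044. Levels per kb depended on the length used, an alternative chosen after seeing the data: with merged exons the mean was 467 CPM per kb for NSMCE2, 465 for MTSS1, 58.6 for PVT1 and 30.1 for TATDN1, and PVT1 over MYC reversed from 1.94 to 0.763. At a mark of 10% in place of 25%, 1 of the genes was past it in high glucose and 4 in low glucose. The share of all genes past the mark in high glucose was 2.63% after adding 1 CPM to every value, 14.0% without a filter, 1.47% over genes averaging 10 CPM or more, 1.13% at a mark of 50% and 18.9% at 10%. For low glucose the share was 19.8%, 2.62%, 2.55% and 24.6% under the last 4 of these. With merged exon length the ratio to the list's median was 3.89 for TATDN1 and 32.4 for MTSS1. Over those averaging 1 CPM or more, the median of the segment's other genes was 30.9 CPM, against 15.1 CPM. The cause was not tested beyond what each setting does by construction. No paired analysis was possible because each concentration has 1 library. No library could be left out for the same reason. Depth limits genes under about 10 CPM, such as WASHC1, and does not limit the 10 genes.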
